A study of Mus musculus with 30 samples.

Results

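The heart was 1 of 5 organs of mice deficient in Ftsj1 and of wild-type mice whose small RNAs were sequenced, and the members described here are all 2194 named features of its table. They come from 6 of the 30 libraries of the series. The Ftsj1_DF group held 3 whole hearts, 1 library each, of male mice aged 4 months that carry the deficiency, and the WT group held 3 whole hearts of wild-type males of the same age. None of the mice was given a treatment. The 6 mice came from 2 sets of brothers, and each set gave hearts to both groups. Sequencing batch 1 held all 3 Ftsj1_DF libraries and 2 of the WT libraries, and the other WT library was redone in batch 2 for want of depth. How the deficiency was made is not given in the sources used here.

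Ftsj1 encodes an enzyme that methylates the ribose of nucleotides in the anticodon loop of some tRNAs. MicroRNAs are cut from hairpin precursors and guide Argonaute proteins to messenger RNAs, chiefly through the seed, the bases near their 5′ end that pair with the target. In the heart, miR-1, miR-133, miR-208a and miR-499 are made in cardiomyocytes, miR-126 in endothelium, and miR-143 and miR-145 in smooth muscle. The question that the comparison addresses is which heart microRNAs differ in level between the genotypes. Ftsj1 is an mRNA and is not among the features counted, so its own level gives no check of the genotype labels.

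The tables hold a fold change without naming the genotype in the numerator, so signs are given as deposited. A positive log2 fold change means higher values in 3 of the libraries, termed the positive side, and the remaining 3 are termed the negative side. One side is the Ftsj1_DF group and the other the WT group, but which is which, and which library belongs to batch 2, could not be told from the tables. No value within batch 1 alone could therefore be had, and any part of the batch in the values was not tested.

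The mature sequences that the results turn on were taken from RefSeq (build GRCm38.p6), 5′ to 3′, with the seed, bases 2 to 8, in capitals. The let-7 family comes first, because its members share a seed and their log2 fold changes spread widely.
let-7b-5p: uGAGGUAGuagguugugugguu
let-7c-5p: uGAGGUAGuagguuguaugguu
let-7a-5p: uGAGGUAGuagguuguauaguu
let-7d-5p: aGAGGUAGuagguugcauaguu
let-7f-5p: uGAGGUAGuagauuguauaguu
miR-98-5p: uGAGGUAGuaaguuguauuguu
let-7g-5p: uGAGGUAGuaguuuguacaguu
let-7i-5p: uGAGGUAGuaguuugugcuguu
Counted from 1 at the 5′ end and with the base of let-7a first, let-7c differs from let-7a by A19G, let-7b by A17G and A19G, let-7d by U1A and U16C, and let-7f by G12A. In the same notation miR-98 differs by G11A and A19U, let-7g by G12U and U18C, and let-7i by G12U, A17G, U18C and A19U.

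The next set is shown because these microRNAs lie beside let-7 genes or share a seed with a member that behaved otherwise.
miR-125a-5p: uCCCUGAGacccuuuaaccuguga
miR-125b-5p: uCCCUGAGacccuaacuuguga
miR-99a-5p: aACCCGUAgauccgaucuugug
miR-100-5p: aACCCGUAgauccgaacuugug
miR-30a-5p: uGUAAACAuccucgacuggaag
miR-30c-5p: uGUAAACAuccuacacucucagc

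The last set holds the heart markers miR-208a, miR-208b and miR-499, the miR-34 seed family, miR-19 and miR-6239. With miR-6239 are shown miR-6236 and miR-6538, whose fold changes stood near its own.
miR-208a-3p: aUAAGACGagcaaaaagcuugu
miR-208b-3p: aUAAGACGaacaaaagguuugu
miR-499-5p: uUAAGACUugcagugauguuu
miR-34a-5p: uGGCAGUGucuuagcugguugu
miR-34b-5p: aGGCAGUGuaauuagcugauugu
miR-449a-5p: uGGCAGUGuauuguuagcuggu
miR-19a-3p: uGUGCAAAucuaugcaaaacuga
miR-19b-3p: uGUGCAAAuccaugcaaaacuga
miR-6239: uAGCGUUGgaucacucggug
miR-6236: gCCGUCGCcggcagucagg
miR-6538: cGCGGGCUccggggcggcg

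Of the 2194 features, 1189 carried Mir symbols and 1004 provisional Gm symbols, and 1107 were listed above 0 per the authors' deposited table. The means, normalised counts averaged over the 6 libraries, summed to 8511372. Size factors recovered from the table, which scale with depth, were 2.28, 0.736 and 0.642 on the negative side and 2.37, 0.692 and 0.605 on the positive side, so each side held 1 deep and 2 shallower libraries. All 1107 features had a p, and the 355 with a mean of at least 20.2 had an adjusted p.

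Few features made up most of the heart's microRNA. Mir143, a smooth muscle microRNA, made up 19.1% of the summed mean per the authors' deposited table, more than any other feature. Mir1a-1, the striated muscle microRNA, followed with 7.45%, Mir30d with 5.71%, Mir126a with 5.31%, Mir30a with 5.04% and Mir26a-2 with 4.25% per the authors' deposited table. The first 50% was held by 7 features, the first 90% by 39 and the first 99% by 120. Shares are of counts per feature and were not divided by length, since mature microRNAs are of nearly equal length, and ligation and read assignment can also move them.

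**Figure D1:**
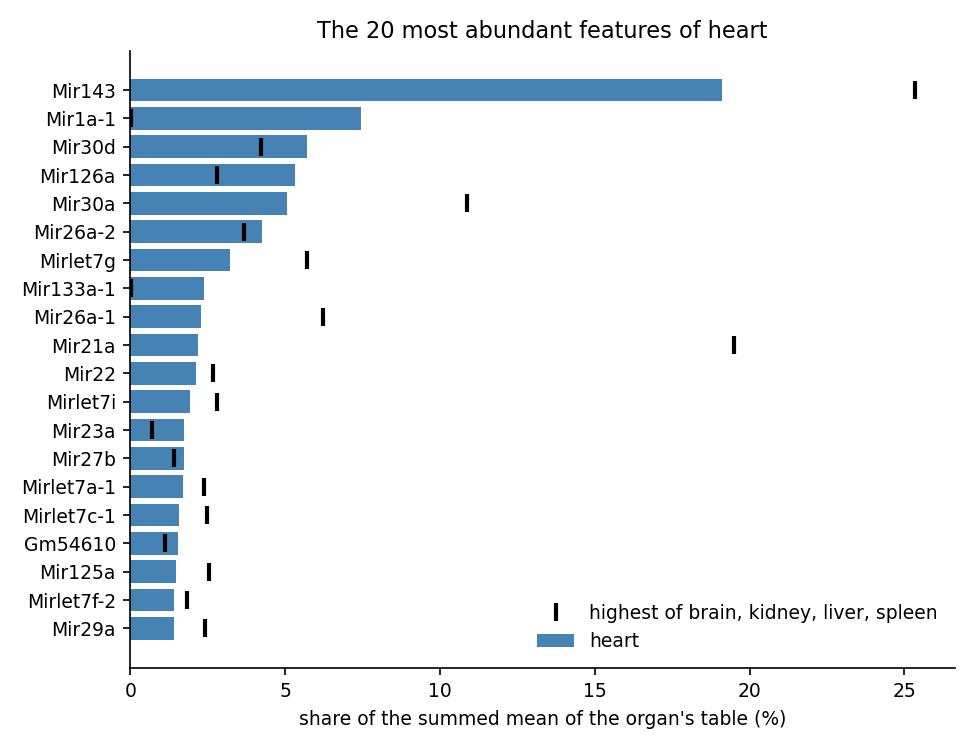
Bars give the share of each of the 20 most abundant features in the summed mean of the heart table (x axis, percent), and ticks give the highest share in the other 4 organs. Mir1a-1 at 7.45% and Mir133a-1 at 2.37% stand far to the right of their ticks, while Mir143 at 19.1% stands to the left of its tick.

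Of the 20 most abundant features, 8 had their highest share of the 5 organs in heart, 7 in brain and 3 in spleen. The 8 were Mir1a-1, Mir30d, Mir126a, Mir26a-2, Mir133a-1, Mir23a, Mir27b and Gm54610. Mir143 itself had a higher share in spleen, at 25.4%, and in kidney, at 21.1%, than in heart per the authors' deposited tables. The tables were normalised organ by organ, so these shares describe each organ and were not tested.

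The label of the organ was checked against its muscle microRNAs. The striated muscle list made up 11.6% of the heart total and at most 0.0498% of any other organ's total, which was in brain. Mir499, encoded within a myosin heavy chain gene, had a mean of 63196 and a share of 0.742% in heart per the authors' deposited table, against 0.00301% in brain, its next highest organ. Mir208a, encoded within the adult cardiac myosin heavy chain gene, had a mean of 3614 per the authors' deposited table, a share of 0.0425% in heart and of 5.30e-05% in brain. Mir206, a microRNA of skeletal muscle, was the exception, with a share of 0.00451% in heart and 0.0163% in brain per the authors' deposited tables. All 4 markers of the organ were thus present.

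None of the muscle microRNAs passed the threshold between the genotypes, which 4 of 355 features, or 1.13%, passed. Of the 9 measured members 3 had a positive and 6 a negative log2 fold change, with a median of -0.06 per the authors' deposited table, where the median of all 355 features with an adjusted p was -0.01 and 170 of them were positive. Mir1a-1 had a log2 fold change of -0.05 with a standard error of 0.20, Mir133a-1 of 0.06 with 0.20 and Mir499 of 0.08 with 0.25 per the authors' deposited table. Mir208a had the lowest value of the list, -0.43 with a standard error of 0.28 and an adjusted p of 0.571 per the authors' deposited table. Mir133a-2 stood at -0.19, Mir1b at -0.06 and Mir133b at 0.20 per the authors' deposited table.

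For features with a mean under 500, whole reads per library were recovered from the deposited means. Mir208b, the microRNA of the myosin heavy chain gene of slow muscle and of the fetal heart, had normalised counts of 57.8, 107 and 149 on the negative side and 55.0, 85.2 and 132 on the positive side. The sides overlapped and their means, 105 ± 45.9 and 90.8 ± 39.0 (SD, n = 3 each), differed by less than the spread within a side. Mir206 had 294, 745 and 254 on the negative side and 432, 318 and 263 on the positive side. A single negative-side library was high, and without it the mean of the negative side lay below that of the positive side, at 0.811 times it.

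The abundant smooth muscle and endothelial microRNAs also had small values, and those of other cell types varied more. Mir143 had a log2 fold change of 0.07 and Mir145a, from the same primary transcript, of 0.08, each with a standard error of 0.19, per the authors' deposited table. Mir126a, the endothelial microRNA, had 0.12 with a standard error of 0.21 per the authors' deposited table. Mir21a, raised in fibroblasts of stressed hearts, had a share of 2.18% and a log2 fold change of 0.33 with a standard error of 0.21 per the authors' deposited table. It was the only positive one of the 5 measured members of the fibroblast list, whose median was -0.21. The others were Mir199a-1 at -0.22, Mir199a-2 and Mir199b at -0.21 each and Mir214 at -0.16 per the authors' deposited table. In whole tissue, fewer cells of a type and less RNA per cell cannot be told apart. Mir150, a lymphocyte microRNA, had -0.51 with a standard error of 0.23, an unadjusted p of 0.0250 and an adjusted p of 0.317 per the authors' deposited table. The other 4 measured leukocyte members had 0.20 for Mir142b, -0.20 for Mir155, -0.14 for Mir223 and 1.04 for Mir146b per the authors' deposited table. Mir146b had a mean of 9.17 and a standard error of 1.07 per the authors' deposited table. Red cell microRNAs stood at 0.21 for Mir144 and -0.11 for Mir486 per the authors' deposited table. Mir122, the hepatocyte microRNA, held 0.0588% of the heart total and 26.2% of liver, and its log2 fold change in heart was -0.54 with a standard error of 0.36 per the authors' deposited tables.

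Across the whole table the contrast was small. DESeq2's adjusted p was under 0.05 for 4 of 355 features, or 1.13%, per the authors' deposited table, 3 of them positive (0.845%) and 1 negative (0.282%). They were Gm56194, Gm54453 and Mir6239, positive, and Mir34b, negative. At an unadjusted p under 0.05 there were 59 of 1107 features, or 5.33%, of which 37 were positive (3.34%) and 22 negative (1.99%) per the authors' deposited table. Among the 355 the share was 11.8%. The nearest feature above the threshold was Mir6538, with a log2 fold change of 0.79 and an adjusted p of 0.0553 per the authors' deposited table.

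**Figure D2:**
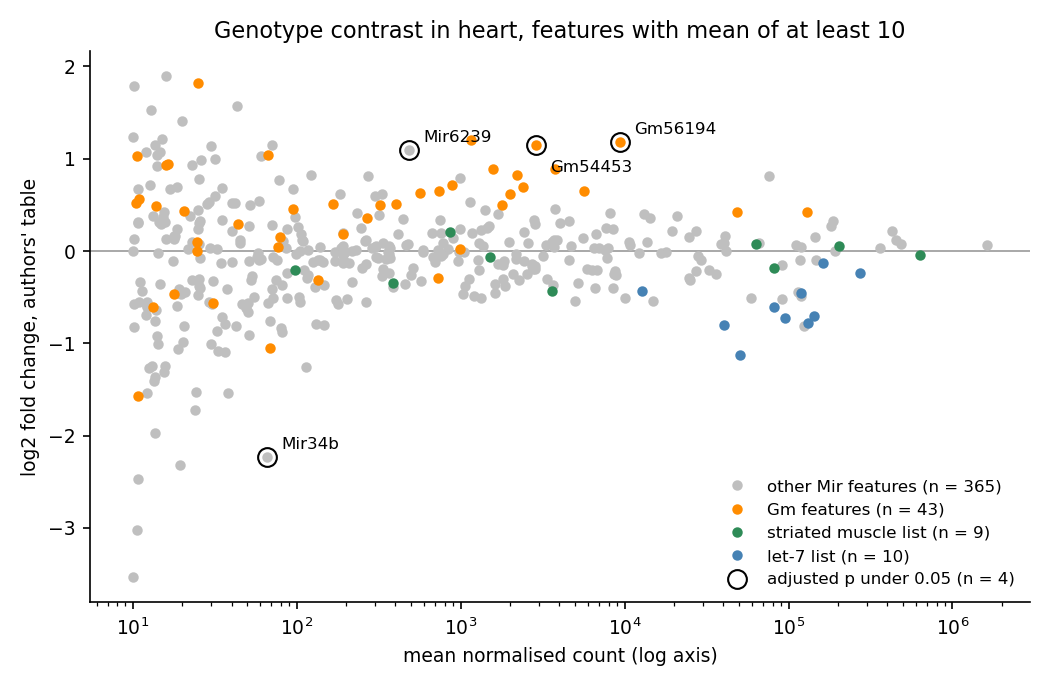
Each point is a feature with a mean of at least 10, with its mean normalised count on a log x axis and the deposited log2 fold change on the y axis, and circles mark the 4 features with an adjusted p under 0.05. The let-7 points all lie below 0, the muscle points lie near 0, and the Gm points with means of at least 1000 all lie above 0.

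With rising abundance the spread of the fold changes narrowed, and the balance of signs among the microRNAs turned from mostly positive at the lowest means to slightly more negative than positive. Of the Mir features with means under 1, 149 were positive and 73 negative per the authors' deposited table. With means from 1 to 10, 147 were positive and 112 negative, and from 10 to 100, 68 and 86, per the authors' deposited table. The 23 Mir features with means of at least 100000 held 77.3% of the total, 11 were positive and 12 negative, and their median log2 fold change was 0.00 per the authors' deposited table. Of the 36 between 10000 and 100000, 15 were positive and the median was -0.04 per the authors' deposited table. Of the 75 between 1000 and 10000, 32 were positive and the median was -0.09, and of the 95 between 100 and 1000, 44 were positive and the median was -0.01 per the authors' deposited table. The median standard error was 0.23 in the class from 1000 to 10000, 0.78 in the class from 10 to 100 and 4.03 for the 355 features of all kinds with a mean under 1. Under a mean of 1, a log2 fold change rests on very few reads, and the median there, 0.88, was that of features with a single read on the positive side per the authors' deposited table.

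Features with Gm symbols differed from the Mir features in this respect. All 12 Gm features with a mean of at least 1000 had a positive log2 fold change, from 0.42 to 1.20, and unadjusted p from 6.16e-06 to 0.0366 per the authors' deposited table. The share with an unadjusted p under 0.05 was 11.8% among the 355 features with an adjusted p. Of those 12, 2 passed the adjusted threshold, against 1.13% of the 355. Of the 23 Gm features with a mean of at least 100, 21 were positive with a median of 0.62, while 102 of 229 Mir features at that level were positive with a median of -0.04 per the authors' deposited table. The Gm features at that level held 2.54% of the heart total. What RNA they count is not given in the sources used here, and their sequences were not used.

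Gm56194 had a mean of 9362 and a log2 fold change of 1.18 with a standard error of 0.26, a 2.26-fold difference, and an adjusted p of 0.00219 per the authors' deposited table. Gm54453 had a mean of 2865, a log2 fold change of 1.15 with a standard error of 0.31 and an adjusted p of 0.0243 per the authors' deposited table. Gm54514 had the highest value of the class, 1.20, with a standard error of 0.36 and an adjusted p of 0.0565 per the authors' deposited table. The most abundant, Gm54610 with a mean of 129812 and Gm54588 with 48285, had equal log2 fold changes of 0.42 with standard errors of 0.20 per the authors' deposited table.

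At lower levels single libraries of Gm features could be seen. Of the 20 Gm features with means from 10 to 100, 14 were positive and 6 negative, with a median of 0.37 per the authors' deposited table. The following 3 were chosen among those whose sides did not overlap. Gm55935 had normalised counts of 50.8, 38.0 and 40.5 on the negative side and 87.5, 75.1 and 106 on the positive side. Gm55944 had 11.8, 4.08 and 17.1 on the negative side and 31.3, 50.6 and 34.7 on the positive side. Gm54396 had 208, 250 and 244 against 277, 285 and 336 in the same order. In each of the 3 every positive-side library was above every negative-side library, and the ratios of the side means were 2.08, 3.53 and 1.28. Over all recovered features with means from 10 to 500, 12.6% had sides without overlap. Gm56154, negative at -1.05 per the authors' deposited table, had 66.5, 53.0 and 159 on the negative side and 30.4, 56.3 and 47.9 on the positive side, which overlapped.

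In the other organs the Gm features did not all share this sign. With means of at least 100, 25 of 28 were positive in spleen, 11 of 15 in liver, 11 of 20 in kidney and 6 of 10 in brain per the authors' deposited tables. The medians were 0.48 in spleen, 0.27 in liver, 0.03 in kidney and 0.02 in brain per the authors' deposited tables. Signs are compared across organs on the assumption that all tables use the same numerator. The same mice gave all organs, so the organs are not independent.

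Mir6239 was the microRNA symbol with the smallest p. Its normalised counts were 256, 424 and 241 on the negative side and 590, 678 and 696 on the positive side, from 3337 reads in all. The sides did not overlap, and their means were 307 ± 102 and 655 ± 56.5 (SD, n = 3 each), a ratio of 2.13. Its log2 fold change was 1.09 with a standard error of 0.29 and an adjusted p of 0.0226 per the authors' deposited table. Mir6236, with a mean of 76425, had a log2 fold change of 0.82 with a standard error of 0.28 and an adjusted p of 0.0990 per the authors' deposited table. Mir6538, with a mean of 995, had 0.79 with a standard error of 0.24 per the authors' deposited table. The 3 mature sequences shown above have different seeds. The reads counted under these 3 symbols could not be examined, so whether they are of microRNAs was not tested.

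Mir34b was the only feature called with a negative sign. The miR-34 and miR-449 genes share a seed and are induced by p53 or during the making of multiciliated cells. Mir34b had normalised counts of 81.0, 48.9 and 198 on the negative side and 27.9, 30.3 and 9.92 on the positive side. Its log2 fold change was -2.23 with a standard error of 0.60 and an adjusted p of 0.0226 per the authors' deposited table, and its mean there, 66.0, was low. Mir34c, its neighbour in the same primary transcript, had 120, 93.7 and 272 on the negative side and 78.2, 69.3 and 52.9 on the positive side. The same negative-side library was highest and the same positive-side library lowest for both, and neither feature's sides overlapped. Mir34c's log2 fold change was -1.26 with a standard error of 0.45, and its adjusted p of 0.131 did not pass per the authors' deposited table. Without the highest library the ratio of the side means fell from 4.81 to 2.86 for Mir34b and from 2.42 to 1.60 for Mir34c.

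The other genes with this seed had other values. Mir34a, encoded at another locus and more abundant with a mean of 976, had a log2 fold change of -0.01 with a standard error of 0.26 per the authors' deposited table. Mir449a had 5.25, 0 and 23.4 on the negative side and 6.77, 4.33 and 0 on the positive side, from 46 reads in all. These sides overlapped. Mir449c had a mean of 0.0705, the worth of 1 read, and Mir449b was listed at 0 per the authors' deposited table. Over the 5 measured members of the list 4 were negative, with a median of -1.26 per the authors' deposited table.

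**Figure D3:**
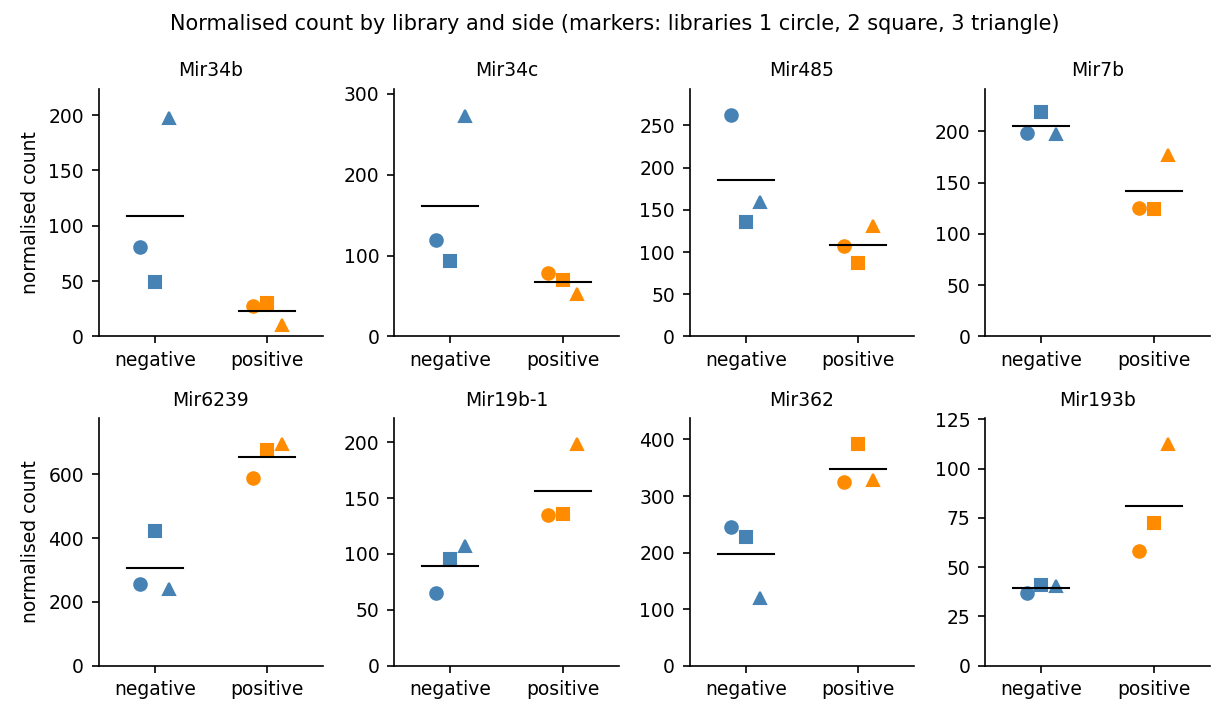
Points give the normalised count (y axis) of each of the 6 libraries for 8 features with a mean under 500, grouped on the x axis by negative and positive side, and lines give the mean of a side. The 8 were chosen among the features whose sides do not overlap, 32 or 12.6% of the 253 recovered features with means from 10 to 500. Mir34b, Mir34c, Mir485 and Mir7b are higher on the negative side.

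The let-7 microRNAs, abundant in differentiated tissue and known to hold back growth, made up 13.1% of the heart total. All 10 measured members had a negative log2 fold change, with a median of -0.65, against -0.01 over the 355 features with an adjusted p per the authors' deposited table. An unadjusted p under 0.05 was reached by 5 of the 10, against 11.8% of the 355 features, and 0 passed the adjusted threshold, against 1.13%. Mirlet7e and Mirlet7f-1 were listed at 0.

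The members were spread over a range wider than any of their standard errors. Mirlet7b had the lowest log2 fold change, -1.12 with a standard error of 0.59, and an adjusted p of 0.443 per the authors' deposited table. Mirlet7c-2 and Mirlet7c-1 followed with -0.80 and -0.78, then Mirlet7a-2 and Mirlet7a-1 with -0.72 and -0.71, each with a standard error of 0.31 to 0.33 per the authors' deposited table. Mirlet7d stood at -0.60 with a standard error of 0.29, Mirlet7f-2 at -0.46 with 0.27 and Mir98 at -0.43 with 0.22 per the authors' deposited table. The most abundant members, Mirlet7g at 3.21% and Mirlet7i at 1.91% of the total, had the values nearest 0, -0.24 and -0.13 with standard errors of 0.23 and 0.20 per the authors' deposited table. Neighbours in this order differed by less than the larger of their standard errors.

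The order followed the sequences printed above in part. let-7b has 10 G in its 5p sequence, let-7c 9, let-7a and let-7d 8, and let-7f, miR-98 and let-7g 7. let-7i, with 8 G and the value nearest 0, did not fall in that order. For let-7a the value of Mirlet7a-1 was taken and for let-7c that of Mirlet7c-1, in every organ. Values of their other copies were not used. Over the 8 mature sequences Spearman's rho between the number of G and the log2 fold change was -0.73. With the fold changes of the other organs it was -0.73 in kidney and in liver, -0.50 in brain and 0.05 in spleen. Over 205 mature sequences outside the family whose precursors had means of at least 1000 it was -0.04. These are descriptions across sequences that share libraries, with both arms of a hairpin given the precursor's value.

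In the other organs the same let-7 precursors had the following log2 fold changes per the authors' deposited tables. Mirlet7b had -0.54 in brain, -2.62 in kidney, -0.82 in liver and -0.01 in spleen, with standard errors of 0.38, 1.16, 0.61 and 0.29. Mirlet7c-1 had -0.67, -1.62, -0.47 and -0.29 in the same order per the authors' deposited tables. Its copy Mirlet7c-2 had -0.74, -1.63, -0.18 and 0.61 per the authors' deposited tables, so the copies differed in sign in spleen. Mirlet7i had -0.33, -0.13, 0.06 and -0.03 per the authors' deposited tables. Mirlet7b lay below Mirlet7i in brain, kidney and liver as in heart, and in spleen both were near 0.

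**Figure D4:**
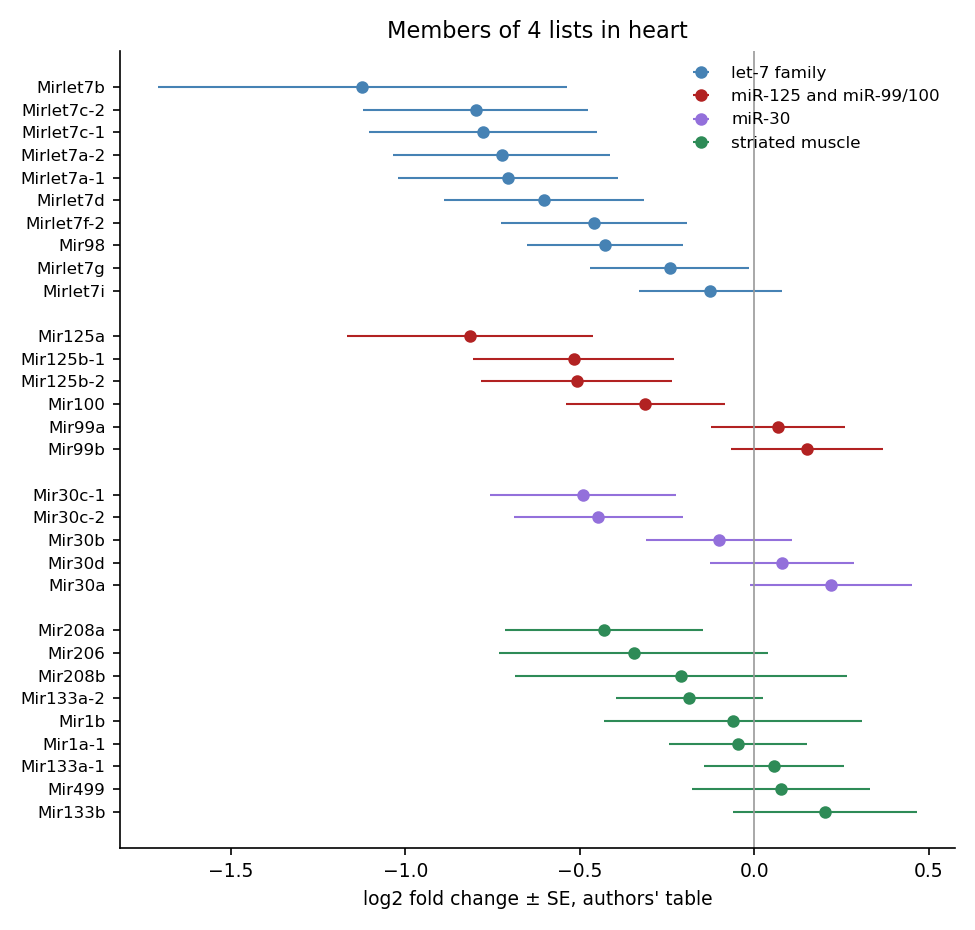
Points give the deposited log2 fold change (x axis) and bars its standard error for the measured members of 4 lists in heart, ordered within each list. The let-7 values run from -1.12 to -0.13, the miR-125 members lie below the miR-99 members, and both miR-30c copies lie below Mir30a, Mir30b and Mir30d.

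MicroRNAs beside the let-7 genes did not all move with them. Mir99a and Mirlet7c-1 are encoded next to each other on the same strand, and their log2 fold changes were 0.07 and -0.78 per the authors' deposited table. Mir100 and Mirlet7a-2, a second such pair, had -0.31 and -0.72 per the authors' deposited table. Mir125a, which carries the seed of worm lin-4, had -0.81 with a standard error of 0.35 and an adjusted p of 0.286 per the authors' deposited table. The Mir125b-1 and Mir125b-2 copies had -0.52 and -0.51, and Mir99b had 0.15 per the authors' deposited table. All 4 precursors with the miR-125 seed, Mir351 among them, were negative with a median of -0.51, while the 3 with the miR-99 seed had a median of 0.07 per the authors' deposited table. Neither group held a feature past the adjusted threshold, which 1.13% of the 355 features passed.

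The miR-30 family, which restrains profibrotic genes in the heart, was split in a like way. The family held 13.8% of the heart total. Mir30c-1 and Mir30c-2 had log2 fold changes of -0.49 and -0.45 with standard errors of 0.27 and 0.24, while Mir30a had 0.22 and Mir30d 0.08 per the authors' deposited table. Mir30b lay between them at -0.10, and Mir30e was listed at 0. The miR-30c sequence has the same seed as miR-30a and differs after it, as the lines above show. None of the 5 measured miR-30 members had an unadjusted p under 0.05, against 11.8% of the 355 features with an adjusted p.

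Of 19 seed families with at least 3 precursors among the features with an adjusted p, 4 had only negative and 7 only positive members. Families can share precursors. Mir103-1, Mir103-2 and Mir107 count under the seeds of both arms, which makes 2 of the 7, and the let-7 3p family repeats precursors of the 5p family. The families with only negative members were those of miR-125, miR-199 and miR-7 and the 3p seed of some let-7 hairpins. Those with only positive members included the seed of miR-15 and miR-16 with a median of 0.09, that of miR-181 with 0.13, that of miR-29 with 0.16 and that of miR-17 with 0.20 per the authors' deposited table. Mir16-2 had 0.09, Mir181a-1 0.21 and Mir29a 0.04 per the authors' deposited table, all within 1 standard error of 0. The highest median, 0.67, was that of the miR-19 seed per the authors' deposited table. The 5p seed of let-7 had 9 negative and 1 positive precursor, the latter being Mir1961 at 0.23 per the authors' deposited table.

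The miR-17/92 clusters, known to promote cell proliferation, held members with unlike values. Of the 15 measured members and paralogs 13 were positive with a median of 0.30 per the authors' deposited table. With means of at least 10 there were 10 positive of 12, with a median of 0.20. Of these members 0 passed the adjusted threshold, against 1.13% of the 355 features. Mir19b-1 had normalised counts of 64.8, 95.1 and 107 on the negative side and 135, 136 and 198 on the positive side. Mir19b-2, the copy on the X chromosome paralog, had 173, 345 and 269 on the negative side and 351, 436 and 415 on the positive side. In both copies the sides did not overlap, although the mature sequence is the same and reads of the copies cannot be told apart by it. Their log2 fold changes were 0.82 and 0.62 with standard errors of 0.38 and 0.31 and adjusted p of 0.319 and 0.407 per the authors' deposited table. Mir19a had 67.4, 97.8 and 54.5 against 66.4, 169 and 117, and its sides overlapped.

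Mir92-1, the most abundant member with a mean of 41310, lies in the same cluster and had a log2 fold change of 0.00 with a standard error of 0.23 per the authors' deposited table. Mir17 and Mir20a had 0.19 each and Mir18 -0.04 per the authors' deposited table. Mir25, of the related cluster with Mir93 and Mir106b, had -0.03, and Mir93 had 0.41 per the authors' deposited table. The miR-19 members had means of 95.4 to 332 and Mir18 one of 192, below those of Mir17 and Mir20a, 669 and 758, per the authors' deposited table. The lowest member with a mean of at least 10 was Mir363, at 15.9 per the authors' deposited table.

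Among 34 groups of at least 2 precursors that lie within 10000 bases of the next on the same strand, 20 had a range of log2 fold changes under 0.35. The widest ranges were in the imprinted cluster that starts with Mir379, at 1.44, in Mir193b with Mir365-1, at 1.39, and in the group of Mir500, Mir501, Mir362 and Mir532, at 1.02. Mir362 had normalised counts of 245, 227 and 120 on the negative side and 324, 392 and 329 on the positive side, with no overlap. Mir193b, a microRNA of brown fat differentiation, had 36.8, 40.8 and 40.5 on the negative side and 58.3, 72.2 and 112 on the positive side, again with no overlap. Its neighbour Mir365-1 had a log2 fold change of -0.36, and Mir532, the neighbour of Mir362, had -0.21 per the authors' deposited table.

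Copies with a shared mature sequence were closer to each other than cluster neighbours. Over 18 pairs of precursors with means of at least 1000 that share a mature sequence, the median difference of the log2 fold changes was 0.046 and the highest 0.408. Over 21 pairs of neighbours with different sequences it was 0.190, with a highest value of 0.847 for Mir99a and Mirlet7c-1. All 10731 pairs of features at that level had a median of 0.342. Reads of identical sequences may be shared or split between copies in the counting, which is not given in the sources used here, so copies are not separate measurements.

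The Dlk1-Dio3 imprinted microRNAs, a large cluster on the maternal allele, had mostly negative signs. Of 44 measured members 29 were negative with a median of -0.19, and with means of at least 10 there were 26 negative of 36 with a median of -0.26 per the authors' deposited table. An unadjusted p under 0.05 was reached by Mir127, at -0.49 with a standard error of 0.23, and Mir485, at -0.80 with 0.38, and neither passed the adjusted threshold per the authors' deposited table. Over all features the shares were 5.33% of 1107 for the unadjusted and 1.13% of 355 for the adjusted threshold. Mir485 had normalised counts of 263, 136 and 159 on the negative side and 107, 86.7 and 131 on the positive side, which did not overlap. Mir379 had -0.32 and Mir411, the next precursor in the cluster, -0.09 per the authors' deposited table.

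MicroRNAs known to respond to hypertrophy or cardiac stress had no common sign. Of 23 measured members 11 were positive and 12 negative with a median of -0.01 per the authors' deposited table. The single one called, of 21 with an adjusted p, was Mir34b, against 1.13% of the 355 features. Mir23a, with 1.74% of the total, had -0.10, Mir199a-1 had -0.22 and Mir132 0.25 per the authors' deposited table. Mir210, the microRNA of hypoxia, had normalised counts of 105, 74.7 and 134 on the negative side and 117, 111 and 111 on the positive side, which overlapped. Mir378c, of the miR-378 family of oxidative metabolism, had 0.46 with a standard error of 0.21, an unadjusted p of 0.0264 and an adjusted p of 0.319 per the authors' deposited table. Mir10b and Mir10a stood at -0.54 and -0.20, Mir222 and Mir221 at -0.30 and -0.19, Mir148a at -0.05 and Mir101a at 0.38 per the authors' deposited table.

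Of the 255 features with means from 10 to 500, reads were recovered for 253, and the sides did not overlap in 32, or 12.6%. In 17 of them the positive side was higher (6.72%) and in 15 the negative side (5.93%). Besides those given above, Mir7b had 198, 219 and 198 on the negative side and 126, 124 and 177 on the positive side. Mir1934 had 55.2, 25.8 and 15.6 against 6.77, 1.44 and 11.6, and Mir6395 had 26.3, 24.5 and 4.67 against 1.69, 1.44 and 1.65. The log2 fold changes of the last 2 were -2.32 and -3.53, and their means, 19.4 for Mir1934 and lower for Mir6395, lay under the lowest level with an adjusted p per the authors' deposited table. With 3 against 3 libraries an exact two-sided permutation test cannot give a p below 0.1, so none was run on single features.

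Some microRNAs of brain and oligodendrocytes were almost absent from 1 deep library. The negative-side library with the size factor of 2.28 had 0 reads of Mir124a-1, Mir124a-3 and Mir219a-2 and 2 reads of Mir124a-2. In the other 5 libraries Mir124a-3 had 154, 128, 152, 141 and 92 reads, Mir219a-2 had 91, 85, 129, 94 and 84, and Mir124a-2 had 51, 78, 102, 68 and 55. Those 5 libraries had like read numbers although their size factors ran from 0.605 to 2.37. Mir7036b, which is on none of the lists, had 0 reads in the same library and 49, 68, 174, 84 and 59 in the others. Mir219a-1 was not low there, with 65.2, 65.2 and 43.6 normalised counts on the negative side. The neuron list as a whole held 0.216% of the heart total and 21.4% of brain, and 4 of its 13 measured members were positive and 9 negative with a median of -0.11 per the authors' deposited table. Mir128-1 and Mir9-2, its abundant members, had log2 fold changes of -0.22 and -0.11 per the authors' deposited table. What set these counts was not tested.

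**Figure D5:**
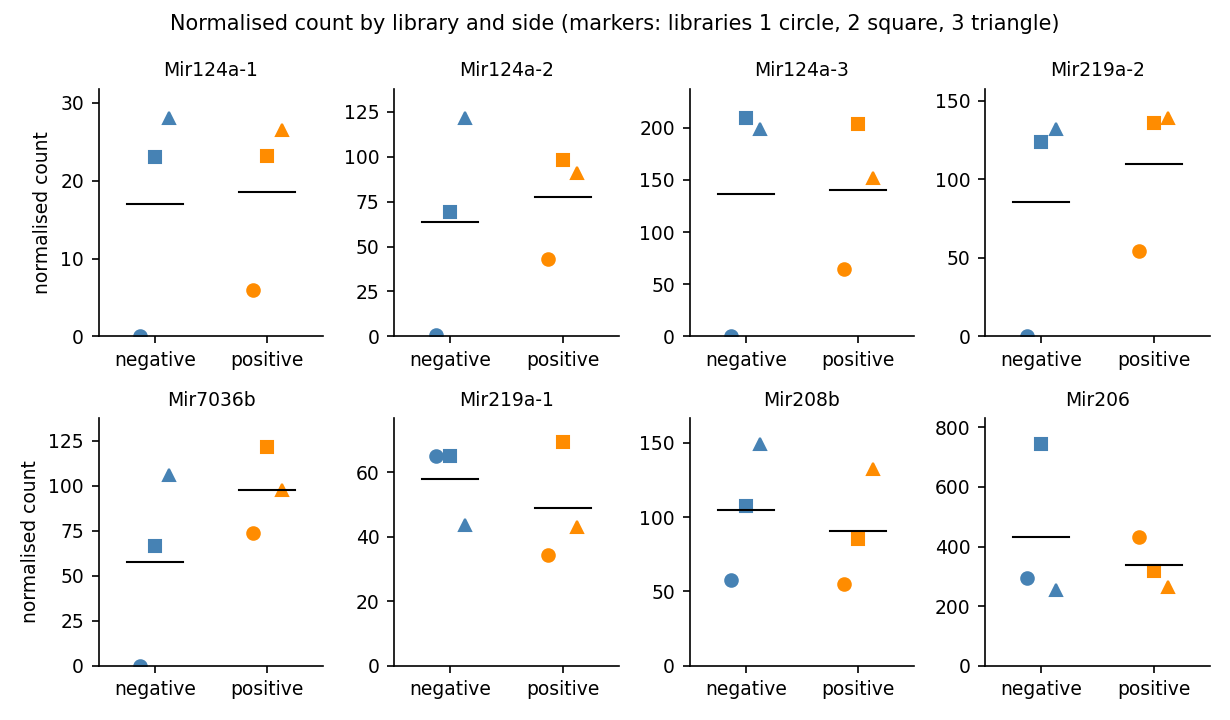
Points give the normalised count (y axis) of each library for 8 features, grouped on the x axis by side, and lines give the mean of a side. The first negative-side library, a circle, lies at or near 0 for the Mir124a precursors, Mir219a-2 and Mir7036b and within the range of the other libraries for Mir219a-1.

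Markers of epithelium and pancreas were present at low levels. The kidney and gut epithelium list held 0.160% of the heart total, and its 9 members had a median log2 fold change of -0.01 per the authors' deposited table. Mir429 had normalised counts of 69.6, 276 and 486 on the negative side and 164, 299 and 291 on the positive side. Mir375 had 34.1, 99.2 and 149 against 57.1, 79.5 and 103, and Mir217 had 7.44, 42.1 and 14.0 against 18.2, 31.8 and 76.1. The deep library of each side was the lowest of its side for these 3, which were singled out after their values were seen. It was not for Mir200c, with 302, 238 and 316 on the negative side and 313, 266 and 299 on the positive side, nor for Mir141, with 15.8, 8.15 and 32.7 against 34.7, 21.7 and 39.7. The deep library is given first on each side, and the sides overlapped for all 5 features.

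The difference between the heart's fold change and that of another organ was tested for each feature with a standard error in both. The test set the difference over its combined standard error, with Benjamini-Hochberg adjustment over all features. None passed an adjusted p of 0.05 (0%) among 883 features against brain, 879 against kidney, 780 against liver and 959 against spleen. At an unadjusted p under 0.05 there were 20, 18, 19 and 28, or 2.27%, 2.05%, 2.44% and 2.92%. The test treats the organs as independent, although they came from the same mice, and the effect of this on the p-values was not tested. Nor was any part of the batch, which differed between organs. In heart, kidney and liver a WT library was of another batch than the rest, from a different mouse in each organ. In brain and spleen all libraries were of the same batch. The calls in heart were thus not shown to be particular to it.

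The 5 differences with the smallest adjusted p, the adjustment being made within each organ, were as follows. Gm56194 had a log2 fold change of 1.18 in heart and -0.26 in brain per the authors' deposited tables, a difference of 1.44 with a standard error of 0.41 and an adjusted p of 0.306. Mir34b had -2.23 in heart and 0.18 in brain per the authors' deposited tables, a difference of -2.41 with a standard error of 0.71 and the same adjusted p. Mirlet7c-2 had -0.80 in heart and 0.61 in spleen per the authors' deposited tables, a difference of -1.41 with a standard error of 0.41 and an adjusted p of 0.571. Mir34c had -1.26 in heart and 0.24 in brain, and Mir7661 had 5.27 in heart and -1.63 in brain with standard errors of 2.44 and 1.33, per the authors' deposited tables. Both of these differences had an adjusted p of 0.989. For Mir6239 the difference from spleen was 1.14, with a 95% interval from 0.26 to 2.03 on the log2 scale, an unadjusted p of 0.0111 and an adjusted p of 1.00. Its difference from brain was 0.95 (-0.46 to 2.36), from kidney 0.23 (-0.82 to 1.29) and from liver 0.18 (-1.10 to 1.46). Brain and spleen held no library of batch 2, so organ and batch cannot be told apart in the differences from them. Mir125a differed from spleen by -1.20 (-2.05 to -0.35), with an unadjusted p of 0.00567 and an adjusted p of 1.00.

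Features listed at 0 included microRNAs known to be abundant in most tissues, and 1087 of the 2194 features were at 0. Mir30e, Mir24-1, Mir451a, Mir378a, Mir1a-2 and Mir142 were among them. In RefSeq's annotation 46 features overlap another listed feature, and 28 of these, or 60.9%, were at 0, against 296 of 1131, or 26.2%, of those with no such overlap. Mir30e overlaps Mir30f, Mir24-1 overlaps Mir3074-1, Mir451a overlaps Mir451b and Mir1a-2 overlaps Mir1b. Mirlet7e, Mirlet7f-1 and Mir378a overlap no listed feature there and were at 0 as well. A feature listed at 0 is therefore given no fold change and is not read as absent from the heart.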

How the data were processed

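Per the labels' protocols, small RNA libraries of 6 hearts were made with the NEXTflex kit from phenol-extracted RNA. Per the submitters' processing notes, the authors used featureCounts of Subread 2.0.3 on GRCm39 and DESeq2 for the comparison. How reads were aligned and annotated, how reads matching several genes were handled and which model was fitted is not given in the sources used here. Per the file headers, the authors deposited a signal per feature, its count after division by size factors, averaged over the libraries. The authors give fold changes with standard errors in log2 units, per the file headers. Their deposited score is the fold change divided by that error, from which the authors took the p-value and its adjusted form. Of 2195 rows 1 without a name was left out, and it held 1.82e-05% of the total. There were 0 unused columns of per-sample values.

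The design had allowed for counts per library. Since only the authors' comparison was deposited, their adjusted p at 0.05 was used. The adjusted p was given for features with a mean of at least 20.2. The members and lists were chosen with earlier results of these data known. The named features were those past the threshold, the 15 most abundant, the 10 of each sign with the smallest p among means of at least 10, all members of the muscle, let-7 and miR-34 and miR-449 lists, and, of each other list, the 2 most abundant members and the one with the smallest p. The 5 smallest adjusted p of the organ differences were added. Other features, such as Mir6236, Mir19b-2, Mir362, Mir193b, Mir485, Mir7b, the Mir124a precursors, Mir219a-2, Mir7036b, the Gm features beyond these and the extremes of clusters, were named after their values were seen. List symbols that matched no feature, aliases for the most part, were left out.

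Each mean is a sum of whole reads over 6 size factors. The 355 means under 1 gave the factors and all 355 were explained. Of 935 features with a mean above 0 and under 500, 470 were resolved into reads by the mean and the fold change together (within 0.0001 on the log2 scale), 463 by the mean alone and 2 not at all. Tested on 824 simulated heart features of low mean, 200 of them changed by a log2 value of 2, the search assigned reads to 820. All 820 were right. From a mean of 100 the search looked only at splits near the deposited fold change. That form of it was not tested by simulation. Organ differences were normal tests of deposited values. Tested on 427 simulated features with a log2 difference of 2 in 200, 72.5% of these were called, and 5.84% of the calls were false. The simulation gave both organs the heart's standard errors, drew them independently and left out means under 10. Its 72.5% is therefore not the share that the reported tests would find. Clusters were read from RefSeq's GRCm38.p6 table for neighbourhood only. RefSeq held a sequence for 1023 of 1189 Mir features and for none of the Gm features. Python 3.11.15, numpy 2.4.6, pandas 2.3.3, scipy 1.17.1 and numba 0.67.0 were used. The 3 libraries of each genotype limit the precision, and p-values measure the spread between these mice. The alternatives tried were other ranges of adjustment, members with means of at least 10, 1 precursor per mature name, centred fold changes, and leaving out each library in turn.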

Additional observations from a re-analysis of the deposited data

How the results depend on the processing

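The number of heart features past an adjusted p of 0.05 depended on which features entered the adjustment. It was 4 as deposited and 4 when restricted to means of 10 or more, and 1 (Gm56194) over every deposited p. It was 7 when restricted to means of 100 or more, a setting that Mir34b, with its mean of 66.0, did not enter. Over Mir symbols alone it was 2 (Mir6239 and Mir34b). Over every deposited p the adjusted p was 0.0705 for Mir6239 and Mir34b and 0.0756 for Gm54453, and over all these settings it ran from 0.00156 to 0.00682 for Gm56194. With 1 library left out in turn, the ratio of side means ran from 2.86 to 6.13 for Mir34b, from 1.60 to 2.93 for Mir34c, from 1.93 to 2.63 for Mir6239, from 1.52 to 1.96 for Mir19b-1 and from 1.30 to 1.81 for Mir19b-2, and each kept its direction. It turned for Mir206, at 0.811 without the second library of the negative side, and for Mir208b, at 0.909 without the third of the negative side and 0.964 without the first of the positive side, with ranges of 0.811 to 1.54 and 0.909 to 1.50. Without the deep negative-side library that lacked Mir124a reads, a setting chosen after seeing the data, the sides did not overlap in 59 features in place of 32. Leaving out any library can only keep or raise this count, and the part of this library in the rise was not tested. For the 26 lists, all 78 medians under an alternative moved by less than the list's median standard error, and 3 changed sign. Centring subtracted the same value, -0.005, from every median, and some lists kept the same members in another setting. Such medians could move little or not at all. The pancreas median fell from 0.996 to 0.381 at means of at least 10, with a median standard error of 0.782. Against each other organ, 0 differences passed in either setting. No paired analysis was possible because the tables hold no values that can be tied to a mouse and the genotypes share no mouse number. Low means limit the fold changes: at the median standard error of 0.30 among features with an adjusted p, a log2 fold change under 0.59 does not reach an unadjusted p of 0.05.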

Other observations

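Further features had sides that did not overlap, as 12.6% of the recovered features did, and were chosen after their values were seen. Mir483, encoded in an intron of Igf2, had normalised counts of 80.1, 34.0 and 56.0 on the negative side and 30.4, 23.1 and 3.31 on the positive side. Mir1982 had 26.7, 24.5 and 56.0 on the negative side and 9.30, 8.67 and 19.8 on the positive side. Mir467c, of a rodent cluster in an intron of Sfmbt2, had 54.7, 47.6 and 28.0 on the negative side and 87.9, 78.0 and 129 on the positive side. Mir744 had 226, 303 and 296 against 393, 339 and 342, a ratio of the side means of 1.30, and Mir7225 had 24.5, 35.3 and 4.67 against 48.2, 56.3 and 90.9. Mir363, a member of the X chromosome paralog of the miR-17/92 cluster, had 17.1, 0 and 1.56 on the negative side and 24.1, 26.0 and 26.5 on the positive side, so its positive-side libraries lay close together while its negative-side libraries spread from 0 upward. None of these had an adjusted p under 0.05 per the authors' deposited table.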
